A study of Mus musculus with 4 samples.

Results

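The 9 genes described here encode proteins of the tight junction and its partners: the claudins Cldn1, Cldn3, Cldn4, Cldn7, Cldn8 and Cldn23, occludin (Ocln), the scaffold protein zonula occludens 1 (Tjp1) and the epithelial cell adhesion molecule Epcam. They were chosen by name, with earlier results of these data known. All 9 symbols were found among the 32285 genes listed in each of 4 single-cell RNA sequencing matrices of mouse epidermis. Trp63 encodes p63, a transcription factor of stratified epithelia, and its ΔNp63 isoform can be deleted in these animals because the alleles are floxed. Control mice were DNp63fl/fl and ablated mice were DNp63fl/fl;K14-CreT2, in which a tamoxifen-dependent Cre recombinase is driven by the keratin 14 promoter of basal keratinocytes. Both genotypes, controls included, were gavaged with 200 mg/kg tamoxifen daily for 5 days. Cells of the epidermis of back skin were taken 1 day or 1 week after ablation, from mice of 2-17 months and of both sexes. Each of the 4 groups (control and ablated, 1 day and 1 week) is 1 library, and the labels do not say how many mice, which ages, which sexes or which of 2 trypsin digestions went into it.

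With each library taken as 1 sample, and 1 library per group, no test between groups was possible and no p-value is given. The labels do not say what the 4 antibody features of the 1-day matrices mark, and these were not used. The 95% intervals printed here cover counting error only and do not measure differences between animals. The kit differed too, 10x 3′ chemistry at 1 day but 5′ chemistry at 1 week, so levels are not compared across time points, and the values of both are given side by side.

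In simple epithelia, tight junctions seal the space between neighbouring cells near their apical surface. Claudins and occludin are membrane proteins that meet their counterparts on the next cell, and zonula occludens scaffolds tie them to actin. In the epidermis functional tight junctions lie in the granular layer below the cornified barrier, although several of the proteins are made in deeper layers too. Epcam is a surface glycoprotein that binds claudins and protects them from degradation.

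Promoter sequences are shown for the member with the largest ratio of ablated to control keratinocytes at 1 day (Cldn7), for the one with the smallest ratio (Cldn1), and for Cldn4, which was added after its motif matches had been seen. Each is the 250 bases before a RefSeq transcription start on build GRCm38.p6, written 5′ to 3′ on the gene's strand, and capitals mark motif matches. The windows are chr11:69964529-69964778 (+) for Cldn7, chr16:26371840-26372089 (-) for Cldn1 and chr5:134946935-134947184 (-) for Cldn4.
Cldn7: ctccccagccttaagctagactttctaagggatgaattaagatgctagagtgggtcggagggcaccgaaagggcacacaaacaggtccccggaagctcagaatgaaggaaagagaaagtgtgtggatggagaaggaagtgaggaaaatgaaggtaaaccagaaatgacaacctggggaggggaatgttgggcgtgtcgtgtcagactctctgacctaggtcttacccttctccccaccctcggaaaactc
Cldn1: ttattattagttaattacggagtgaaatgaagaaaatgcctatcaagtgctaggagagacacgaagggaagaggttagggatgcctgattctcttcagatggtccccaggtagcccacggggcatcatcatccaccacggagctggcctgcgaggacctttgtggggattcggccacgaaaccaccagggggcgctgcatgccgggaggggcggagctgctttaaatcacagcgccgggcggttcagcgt
Cldn4: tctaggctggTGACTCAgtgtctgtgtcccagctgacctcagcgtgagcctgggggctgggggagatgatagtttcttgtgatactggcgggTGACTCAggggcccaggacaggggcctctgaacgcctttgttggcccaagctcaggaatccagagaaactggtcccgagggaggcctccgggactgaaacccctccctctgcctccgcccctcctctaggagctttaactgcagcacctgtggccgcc
Both strands were searched for AACNGGTT (Grainyhead family), TGANTCA (AP-1) and the decamer of the p53 family. The Cldn4 window holds TGANTCA at positions 11 and 93, counted from its 5′ end, and 6.75% of 32851 promoter windows of the same length hold that motif at least once. None of the 3 motifs occurs in the Cldn7 and Cldn1 windows, which says only that these letters are not there. The RefSeq table held 9 windows for 7 members, and of the others only that of Tjp1 had a match, 1 decamer of the p53 family at position 216, a motif found in 7.13% of windows. AACNGGTT was in 1.79% of all windows and in none of the members' 9.

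On GRCm38 (GENCODE M21), Cldn3 lies on chromosome 5 from 134986214 to 134987472 and Cldn4 from 134945119 to 134946934, 39279 bases apart and on opposite strands. Cldn7 is on chromosome 11 (69964779 to 69967885), Cldn1 and Cldn8 are on chromosome 16 (26356642 to 26371841 and 88560828 to 88563183) and Cldn23 is on chromosome 8 (35824712 to 35826559). Ocln is on chromosome 13 (100496507 to 100552718), Tjp1 on chromosome 7 (65296165 to 65527781) and Epcam on chromosome 17 (87635979 to 87651129). All 9 are protein-coding genes. Cldn3 is overlapped by Wbscr25 and Tjp1 by Gm44795 on the other strand. Tjp1 overlaps Gm44794 and Gm44792 on its own strand, and how reads in the overlap were counted was not tested.

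The libraries held 179736563 (control, 1 day), 144323031 (ablated, 1 day), 88903603 (control, 1 week) and 68191870 (ablated, 1 week) UMIs, each UMI marking 1 captured RNA molecule. Keratinocytes numbered 20534, 22472, 6946 and 3523 in the same order. Before clustering at 1 week, 59.5% of control and 73.0% of ablated cells had been left out as shallow barcodes. These had under 3000 UMIs and a profile close to their library's lowest-UMI barcodes. The 1-week class values therefore rest on the remaining cells, while at 1 day such barcodes were kept. Clusters were named from marker genes, with "-like" for a name that rests on them, and there were 4861 control but 586 ablated basal-like cells at 1 day, then 1936 but 17 at 1 week. Clusters with Krt8, a keratin of simple epithelia, at 1000 CPM or more (CPM, a gene's UMIs scaled to a common total) are called Krt8-high, and held 3864 ablated but 6 control cells 1 day after ablation, and 418 ablated but 0 control cells 1 week after. Trp63 was counted over the whole gene, which does not separate ΔNp63, at 404 CPM in control and 115 CPM in ablated keratinocytes at 1 day and at 436 and 138 CPM at 1 week. Of the barcodes, 299 were shared by the 1-day libraries and 661 by the 1-week libraries (2.64% of control and 3.59% of ablated). Without them the median log2 ratio of the members was 1.12 at 1 day and 1.14 at 1 week, against 1.12 and 1.09 with them.

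Immune cells that should lack most of the members were read for comparison, and they did not share 1 level. In the 1-day ablated library the 379 T cell-like cells carried Cldn4 at 307 CPM and Epcam at 1290 CPM, against 36.4 and 390 CPM in the 750 T cell-like cells of its control. The lowest barcode held 500 UMIs in that control but 1368 in the ablated library, with 500 and 1059 at 1 week. Of the T cell-like cells at 1 day, 658 of 750 in control but 125 of 379 in ablated had under 2000 UMIs. The part of this unlike depth in the T cell-like levels was not tested. At 1 week the same class held Cldn4 at 4.33 CPM in control and 46.0 CPM in ablated, and Epcam at 71.4 and 76.6 CPM. Their keratin 14 (Krt14) was at 2320, 3030, 418 and 410 CPM in the 4 libraries in the order above. Langerhans-like cells of the 1-day ablated library (460 cells) held less of these, with Cldn4 at 59.7 CPM, Krt14 at 660.0 CPM and Cldn7 at 0 UMIs. In that library Cldn4 and Krt14 thus differed in CPM between T cell-like and Langerhans-like cells, which does not settle what its droplets share. Whether free RNA or doublets with keratinocytes carried Cldn4 and Krt14 into T cell-like cells was not tested. The T cell-like level is given below as a measured value only.

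Across all keratinocytes, 5 of the 9 members (Cldn3, Cldn4, Cldn7, Cldn23 and Epcam) were at least 2-fold higher in the ablated than in the control library at 1 day, and the same 5 at 1 week. No member was 2-fold lower at either time. Of all genes with at least 50 UMIs in both sums together, 5.76% were at least 2-fold higher and 2.66% at least 2-fold lower at 1 day (13482 genes), and 8.97% and 4.94% at 1 week (13174 genes). All 9 members had that many UMIs, Cldn7 only through the ablated libraries (32 control and 1106 ablated UMIs at 1 day, 30 and 579 at 1 week). The members were chosen with earlier results of these data known, so their count beside these shares is a description and not a test. The median log2 ratio of the members was 1.12 at 1 day and 1.09 at 1 week, and that of all genes was -0.03 and 0.08. These sums mix classes in unlike proportion. Keratinocyte clusters without a class held 26.4% of control and 51.2% of ablated keratinocyte UMIs at 1 day, with 24.8% and 28.9% at 1 week. Medians with them and the granular-like clusters left out are given below. With the CPM of the T cell-like cells of each library subtracted, an alternative added after the data had been seen, the 1-day median was -0.60 over 7 members and the 1-week median 1.36 over 8. At 1 day Cldn4 (1.23) and Cldn23 (2.11) were then at least 2-fold higher, Epcam was at 0.13, and Ocln (-0.60), Cldn8 (-1.04) and Cldn1 (-1.83) were lower. For Cldn7 the level subtracted exceeds that of the ablated keratinocytes themselves, so its value is set by the floor of 3 counts and gives no direction. It is still 1 of the 7 values behind the 1-day median of -0.60. Whether the T cell-like level also lies in the keratinocyte sums was not tested, nor was the part of the unlike depth of the T cell-like cells. In the plot of the members' log2 ratios, Cldn7 stands farthest to the right and Cldn1 and Tjp1 lie next to 0.

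**Figure D1:**
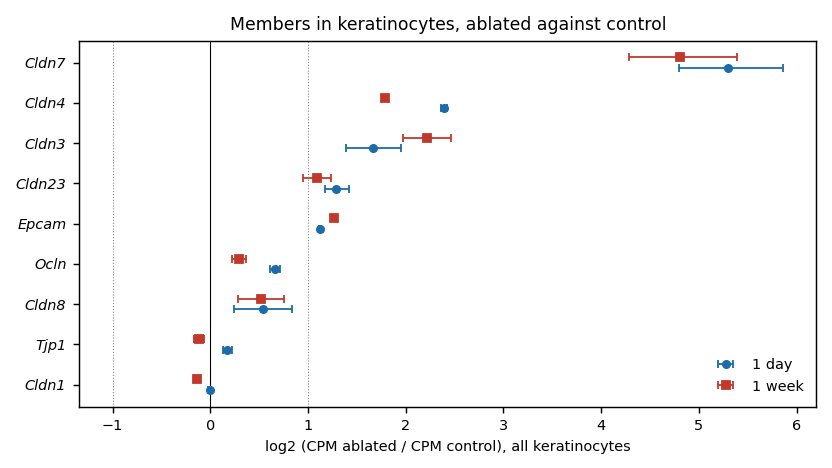
Log2 ratio of ablated to control CPM summed over all keratinocytes for each of the 9 members (x axis), with circles for 1 day, squares for 1 week and bars for the 95% counting interval; dotted lines mark 2-fold. Cldn7 has the largest ratios (5.30 and 4.81), and 5 members lie beyond the 2-fold line at both times.

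Cldn7, a claudin of the basolateral membrane that binds Epcam in other epithelia, was nearly undetected in control keratinocytes. Its 32 UMIs there at 1 day made 0.296 CPM, and 1106 UMIs in ablated keratinocytes made 11.7 CPM. At 1 week, 30 UMIs made 0.549 CPM and 579 UMIs made 15.4 CPM. The ablated library of each time point was the high one, 39.5-fold higher at 1 day (log2 ratio 5.30, interval 4.80 to 5.86) and 28.0-fold at 1 week (4.81, interval 4.28 to 5.39). T cell-like cells held Cldn7 at 0 UMIs and 16.7 CPM (22 UMIs, interval 10.5 to 25.3) at 1 day, control and ablated. At 1 week they held 1 UMI (2.16 CPM) and 0 UMIs, the latter with an interval up to 14.1 CPM. Langerhans-like cells had 0 Cldn7 UMIs in all 4 libraries, with an interval up to 3.34 CPM in the 1-day ablated one. The 1-day value in all ablated keratinocytes was therefore not separable by counting error from that of T cell-like cells and was above that of Langerhans-like cells, whereas those of Krt8-high and cycling cells, given next, were above both. With the CPM of all immune cells subtracted the 1-day ratio was 3.14, and without the Krt8-high clusters it was 4.43, with 4.18 at 1 week. The 1-week ratio with immune cells subtracted, 8.13, is set by the floor of 3 counts in control.

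Within the ablated keratinocytes Cldn7 was concentrated in 2 classes. Krt8-high cells held it at 41.2 CPM at 1 day and 44.6 CPM at 1 week, and cycling cells at 50.2 and 32.8 CPM. These classes gave 53.6% and 22.9% of its UMIs at 1 day and 45.4% and 37.7% at 1 week. In control cycling cells Cldn7 was at 1.93 and 1.21 CPM, so the log2 ratio there was 4.70 (interval 3.87 to 5.68) at 1 day, with 4.76 (3.39 to 6.65) at 1 week. The 1-week cycling cells came from different clusters, mostly one led by Anln in control (172 of 276 cells) and one led by Ube2c in ablated (326 of 334). Ablated upper follicle-like cells were at 1.39 and 0.503 CPM, and bulge-like cells at 2.48 and 1.11 CPM. After thinning each cell to 2000 UMIs, 7.19% of Krt8-high and 8.66% of cycling ablated cells had a Cldn7 UMI at 1 day, against 2.36% (interval 0.872 to 5.07) of T cell-like cells. At 1 week the shares were 6.70% and 5.69%, and 0 of 52 T cell-like cells had one, which leaves an interval up to 6.85%.

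Outside the Krt8-high clusters, Cldn7 was also higher in ablated keratinocytes with more Krt8 UMIs. In those with 3 or more Krt8 UMIs most of it came from cycling cells. Cells with 0 Krt8 UMIs of 2000 held Cldn7 at 2.10 CPM at 1 day. With 1 to 2 Krt8 UMIs the value was 9.68 CPM, and with 3 or more it was 43.0 CPM (interval 37.6 to 49.0, 1061 cells). At 1 week the 3 values were 2.14, 29.0 and 114 CPM, the last from 90 cells. Cycling cells, a subset of these, gave 180 of the 227 Cldn7 UMIs in the top bin at 1 day and 150 of the 172 at 1 week. In the bin of 1 to 2 Krt8 UMIs they gave 50 of 132 and 47 of 84. Their own values were 5.92, 59.2 and 131 CPM at 1 day, then 4.27, 66.4 and 148 CPM at 1 week. Without them the values were 1.90, 6.41 and 12.0 CPM (interval 8.84 to 16.0) at 1 day. The last lies within the interval of T cell-like cells, and the other 2 lie below it. At 1 week they were 1.67, 16.9 and 44.8 CPM (interval 28.1 to 67.8, 45 cells). Krt8 was at 466 CPM in T cell-like and 99.5 CPM in Langerhans-like cells of the 1-day ablated library, and the part of free RNA or doublets in the relation was not tested. In the T cell-like cells of the 1-week ablated library neither gene had a UMI.

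Cldn4, a claudin that restricts the passage of ions, was found in keratinocytes of every library, with 76.3 CPM in control and 400.0 CPM in ablated at 1 day, against 521 and 1800 CPM at 1 week. Both ablated libraries were the higher ones, by a log2 ratio of 2.39 (interval 2.36 to 2.42) and 1.79 (1.77 to 1.81). The 1-day ratio was 1.23 with the T cell-like level subtracted, and the 1-week ratio was 1.06 without the Krt8-high clusters and 1.15 with the CPM of all immune cells subtracted, each still past 2-fold. In control epidermis it was highest in the granular-like cells (247 CPM at 1 day, 1640 CPM at 1 week) and the upper follicle-like cells (237 and 1610 CPM). Control bulge-like cells were low, at 12.5 and 17.4 CPM.

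The ratio of Cldn4 differed between classes. At 1 day it was 0.60 in granular-like and 0.37 in upper follicle-like cells, against 2.71 in basal-like, 2.06 in suprabasal-like, 2.33 in bulge-like and 3.49 in cycling cells. The 1-day ablated levels of basal-like (235 CPM), bulge-like (62.9 CPM), cycling (180 CPM) and sebaceous-like cells (149 CPM) lay below the 307 CPM of T cell-like cells, and those of upper follicle-like (306 CPM) and suprabasal-like cells (312 CPM) at it. The bulge-like level was at the 59.7 CPM of Langerhans-like cells within counting error, and the other 5 were above it. At 1 week the ratio was 1.04 (interval 0.95 to 1.13) in granular-like, 0.62 (0.57 to 0.67) in upper follicle-like, 3.45 (3.12 to 3.80) in bulge-like and 2.13 (1.97 to 2.29) in cycling cells. Ablated bulge-like cells were at 190 CPM against 17.4 CPM in control, and ablated cycling cells at 468 CPM against 107 CPM, both above the 46.0 CPM of T cell-like cells. Langerhans-like cells of that library held 1090 CPM, from few cells. Sebaceous-like cells held 2.62 CPM (3 UMIs) in control and 289 CPM in ablated, but 225 of the 307 ablated cells belonged to a cluster led by Elovl6 with no control cell.

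Krt8-high cells had the highest Cldn4 of the named classes in each ablated library, at 548 CPM at 1 day and 5620 CPM at 1 week. They gave 20.9% and 48.9% of its UMIs in ablated keratinocytes. A second group of cells seen almost only after ablation was higher still at 1 day. This cluster without a class (7 control and 4992 ablated cells), led by Slpi, Sprr2f and Sprr2d, held Cldn4 at 641 CPM. With each cell thinned to 2000 UMIs, a Cldn4 UMI was found in 60.4% of Krt8-high, 49.4% of granular-like, 41.0% of upper follicle-like, 38.2% (interval 32.2 to 44.5) of T cell-like and 9.12% (5.99 to 13.2) of Langerhans-like cells of the 1-day ablated library. The corresponding shares at 1 week were 96.4%, 81.3%, 79.3%, 3.85% and 14.1%.

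Cldn3, a sealing claudin, was scarce, at 1.32 CPM (143 UMIs) in control and 4.20 CPM (397 UMIs) in ablated keratinocytes at 1 day and at 3.33 CPM (182 UMIs) and 15.5 CPM (583 UMIs) at 1 week. Its log2 ratio was 1.67 (interval 1.39 to 1.95) at 1 day, with 2.22 (1.97 to 2.46) at 1 week. With the CPM of all immune cells subtracted the 1-day ratio was 0.99, just under 2-fold. At 1 day T cell-like cells held 1.52 CPM (2 UMIs) in control and 4.56 CPM (6 UMIs) in ablated, so the 1-day levels over all keratinocytes did not stand above those few UMIs, and at 1 week both T cell-like sums had 0 UMIs. Granular-like cells held the highest level of the named classes in each library, 33.1 and 24.4 CPM at 1 day, with 102 and 91.6 CPM at 1 week. Within them the libraries differed little, with a ratio of -0.44 (-0.86 to 0.00) and -0.16 (-0.54 to 0.24). Bulge-like cells at 1 week differed more, at 3.35 CPM in control and 17.6 CPM in ablated (log2 ratio 2.39, interval 1.60 to 3.28).

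Cldn23, known from differentiated epithelial cells, was at 7.56 and 18.5 CPM in control and ablated keratinocytes at 1 day and at 13.3 and 28.2 CPM at 1 week, with log2 ratios of 1.29 (interval 1.17 to 1.42) and 1.09 (0.95 to 1.23). Within granular-like cells the order was the other way round, 213 CPM in control and 144 CPM in ablated at 1 day (ratio -0.56, interval -0.73 to -0.39) and 424 and 253 CPM at 1 week (-0.75, -0.94 to -0.54). At 1 day the granular-like class joined clusters in unlike proportion, led by Wfdc21 (205 control and 997 ablated cells) and by Lce1m (11 and 282). The part of this mix in the 1-day ratios of the class was not tested. That class took a larger share of the keratinocyte UMIs of the ablated libraries, 7.29% against 1.76% at 1 day and 7.62% against 1.25% at 1 week. It gave 49.8% and 56.7% of the Cldn23 UMIs at 1 day and 40.0% and 68.2% at 1 week. With the granular-like cells and the clusters without a class left out, the ratio over the remaining keratinocytes was 2.00 at 1 day and -0.02 at 1 week. That 1-week remainder joined unlike classes. Suprabasal-like cells gave 240 of the 725 control Cldn23 UMIs, but the 9 ablated ones held 0. Krt8-high cells gave 123 Cldn23 UMIs in ablated and had no control cell. Upper follicle-like cells were higher in ablated at 1 day (9.24 and 26.8 CPM) and lower at 1 week (18.4 and 10.1 CPM).

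Cldn8, a claudin best known from the kidney collecting duct and colon, was scarce. Bulge-like cells gave 42.9% and 20.8% of its UMIs in keratinocytes at 1 day, with 44.7% and 49.0% at 1 week. Clusters without a class gave 30.6% and 44.9% at 1 day, with 26.7% and 14.2% at 1 week. In bulge-like cells it was at 6.46 CPM in control and 6.57 CPM in ablated at 1 day, with 29.9 and 26.8 CPM at 1 week. Of the barcodes in the 1-day bulge-like clusters, 65.4% to 74.2% had under 3000 UMIs and a profile close to their library's lowest-UMI barcodes. In basal-like cells 14.3% did, and at 1 week such barcodes were left out. Shallow cells can meet these limits too, and free RNA was not measured apart from them. Inside the bulge-like class the cluster with Aspn and Pthlh among its leading genes was highest, at 20.4 and 16.6 CPM at 1 day, with 78.8 and 58.9 CPM at 1 week. Sebaceous-like cells held 2.30 and 7.14 CPM at 1 day, the latter (16 UMIs, interval 4.08 to 11.6) not separable from the ablated bulge-like level, with 14.8 and 10.5 CPM at 1 week. Control cycling cells at 1 week held 12.7 CPM. Granular-like cells held at most 0.525 CPM, and basal-like cells at most 0.271 CPM. The ratio within bulge-like cells was 0.02 (interval -0.54 to 0.58) and -0.16 (-0.51 to 0.19), so a 2-fold difference in either direction lies outside both intervals. Over all keratinocytes the values were 1.57 and 2.29 CPM at 1 day, with 5.49 and 7.86 CPM at 1 week. The ratios there were 0.54 (0.24 to 0.84) and 0.52 (0.28 to 0.75), but the 1-day one turned to -1.04 with the T cell-like level (0 UMIs in control and 2 in ablated) and to -0.59 with the CPM of all immune cells subtracted. The 1-week ratio was 1.24, past 2-fold, with the T cell-like level subtracted.

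Cldn1, the claudin whose loss in mice lets water escape through the skin, differed little over all keratinocytes. Its level was 630.0 CPM in control and 629 CPM in ablated keratinocytes at 1 day, and 697 and 630.0 CPM at 1 week. The log2 ratio was 0.00 (interval -0.02 to 0.01) at 1 day, with -0.14 (-0.17 to -0.12) at 1 week. With the T cell-like level subtracted the 1-day ratio was -1.83. Control levels ran from 286 CPM in control bulge-like cells to 1090 CPM in control upper follicle-like cells at 1 day. At 1 week the control values ran from 121 CPM (sebaceous-like) to 1190 CPM (upper follicle-like), with 660.0 CPM in basal-like and 830.0 CPM in suprabasal-like cells. T cell-like cells held 241 and 519 CPM at 1 day, with 30.3 and 26.8 CPM at 1 week. The control bulge-like level at 1 day was thus near that of T cell-like cells. The 1-day ablated levels of bulge-like (360.0 CPM), cycling (396 CPM) and sebaceous-like cells (402 CPM) lay below the T cell-like one, and that of granular-like cells (516 CPM) at it. The level in bulge-like cells at 1 week was 265 CPM in control and 446 CPM in ablated, a ratio of 0.75 (interval 0.65 to 0.85).

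Occludin (Ocln), which sits with the claudins in the junction strands, was at 49.7 and 78.6 CPM at 1 day, with 58.1 and 71.1 CPM at 1 week. Ablated keratinocytes were higher at both times but by less than 2-fold, with log2 ratios of 0.66 (interval 0.61 to 0.71) and 0.29 (0.22 to 0.37). The 1-day direction turned, to -0.60 with the T cell-like level and -0.29 with the CPM of all immune cells subtracted. T cell-like cells held Ocln at 13.7 and 54.8 CPM at 1 day, and Langerhans-like cells at 71.0 and 86.0 CPM. At 1 week T cell-like cells held 0 UMIs and 3.83 CPM. Ocln was highest in granular-like and upper follicle-like control cells, at 96.7 and 89.7 CPM at 1 day, with 108 and 113 CPM at 1 week. Tjp1, which binds claudin tails to the cytoskeleton, was at 75.9 and 85.4 CPM at 1 day, with 123 and 114 CPM at 1 week. Its ratio was 0.17 (0.13 to 0.22) and -0.12 (-0.17 to -0.06). Tjp1 did not separate keratinocytes from other cells, since T cell-like cells held it at 89.8 to 169 CPM across the 4 libraries.

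Epcam was at 804 CPM in control and 1740 CPM in ablated keratinocytes at 1 day and at 615 and 1480 CPM at 1 week. Both ablated libraries were higher, with log2 ratios of 1.12 (interval 1.11 to 1.13) and 1.27 (1.25 to 1.29). With the T cell-like level subtracted the ratio was 0.13 at 1 day, no longer past 2-fold, and 1.37 at 1 week. With the CPM of all immune cells subtracted, Langerhans-like cells that hold Epcam included, it was 2.03 at 1 day. The 1-week value, 13.07, is set by the floor of 3 counts in control, and its size cannot be read. Upper follicle-like cells had the highest control level at both times, 1980 and 1900 CPM, and differed little from ablated ones (2110 and 2250 CPM). The interfollicular layers differed more at 1 day, with 682 and 1300 CPM in basal-like and 366 and 947 CPM in suprabasal-like cells, control and ablated. Those 2 ablated values lie at or below the 1290 CPM of T cell-like cells within about their counting error, and the source of the T cell-like level was not tested. At 1 week the 17 ablated basal-like cells held 503 CPM, against 484 CPM in control (ratio 0.06, interval -0.28 to 0.37). Granular-like cells at 1 week, far above the T cell-like level of 76.6 CPM in ablated, were at 1460 CPM in control and 3100 CPM in ablated (1.09, 0.99 to 1.18).

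**Figure D2:**
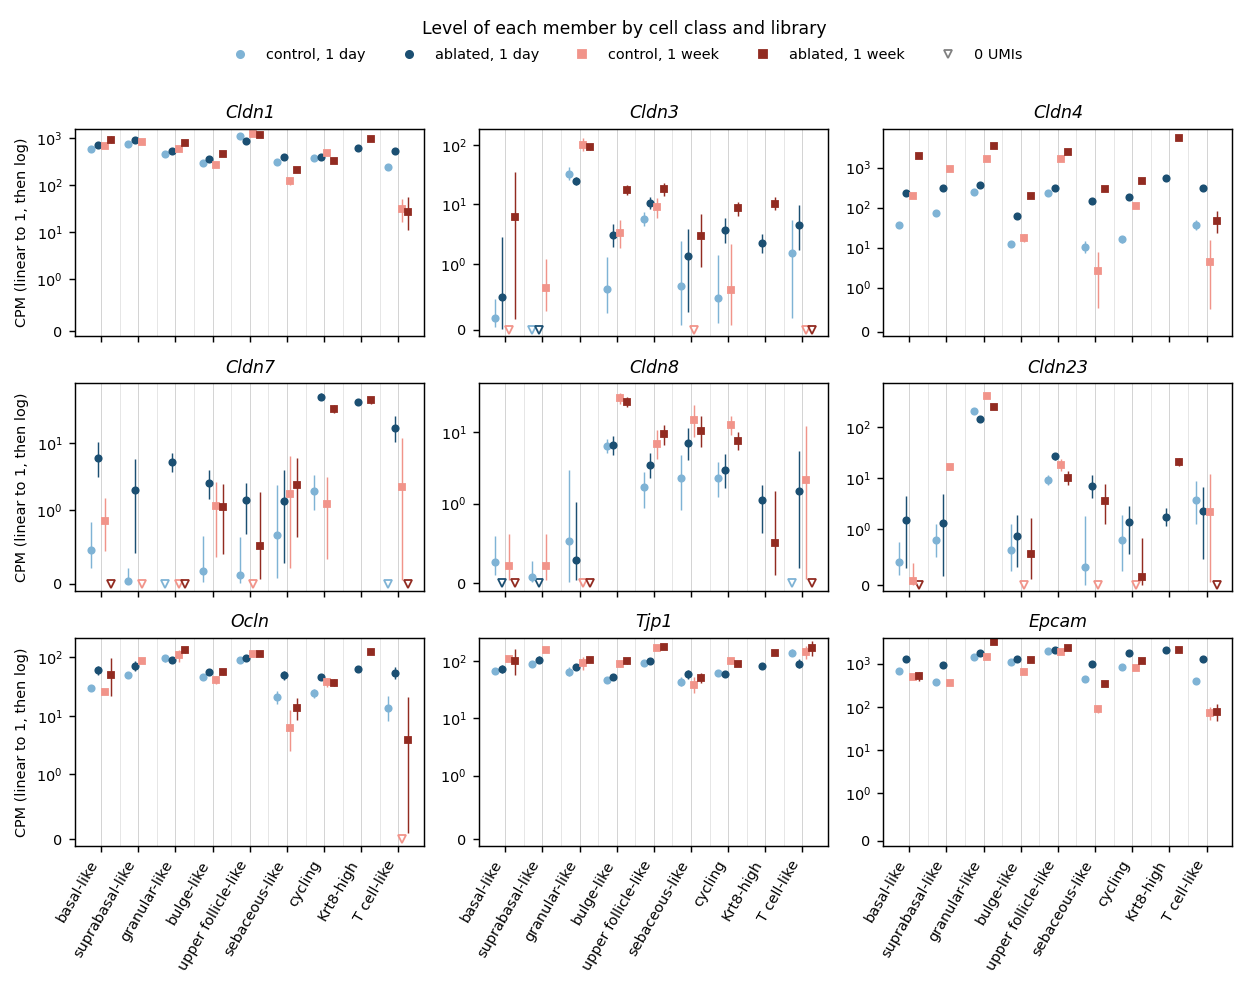
Level of each member in CPM (y axis, linear up to 1 and logarithmic above) by cell class and library, with 1-day libraries as circles, 1-week libraries as squares, bars for the 95% counting interval and open triangles for 0 UMIs. Cldn23 and Cldn3 peak in granular-like cells, Cldn8 in bulge-like cells except in the 1-day ablated library (sebaceous-like 7.14 CPM, bulge-like 6.57 CPM) and Cldn7 in ablated cycling and Krt8-high cells, and in the T cell-like column Cldn4 is highest in the 1-day ablated library (307 CPM).

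Within classes the members with at least 50 UMIs seldom differed by the same amount. The ratio of Cldn1 stayed between -0.32 (upper follicle-like) and 0.35 (sebaceous-like, whose ablated level lay below that of T cell-like cells) at 1 day. That of Cldn4 was above 0 in each class compared, with 1-day ablated levels at or below the T cell-like one in 6 of them, and that of Epcam ran from 0.09 in upper follicle-like to 1.37 in suprabasal-like cells at 1 day. The colour map of the ratios shows these differences between classes.

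**Figure D3:**
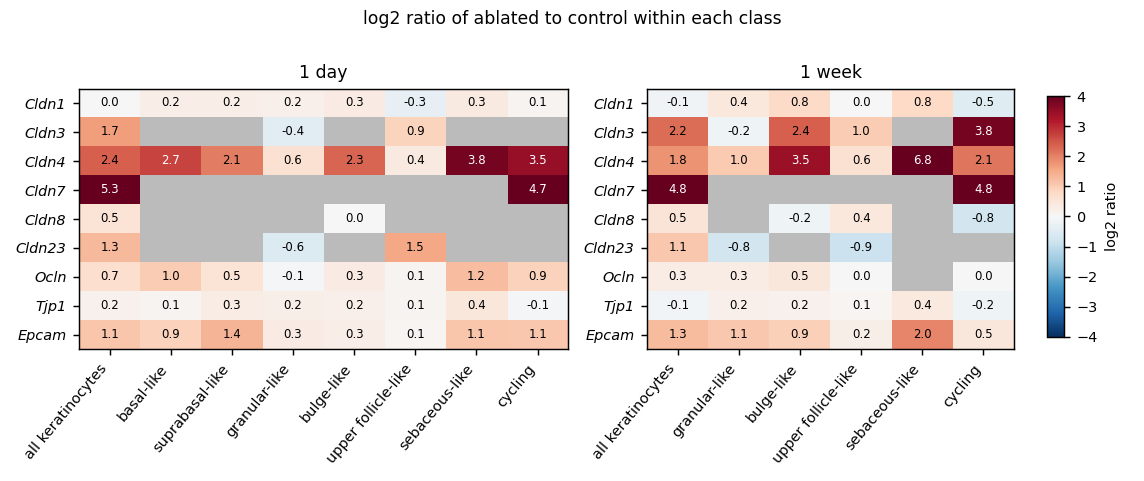
Log2 ratio of ablated to control CPM within each cell class (columns) for each member (rows) at 1 day and 1 week; red is higher in ablated, blue lower, colours stop at 4 in either direction, and grey marks sums under 50 UMIs. Cldn4 is red in all classes shown, from 0.37 in upper follicle-like cells at 1 day to 6.79 in sebaceous-like cells at 1 week, whereas Cldn23 is blue in granular-like cells at both times.

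Krt8-high cells were set against 2 references. Against control keratinocytes at 1 day, 3 members were at least 2-fold higher, Cldn7 (log2 ratio 7.12), Cldn4 (2.84) and Epcam (1.35), where 4.70% of all genes were, and Cldn23 was lower (-2.12), where 18.1% were. At 1 week, 5 were higher, Cldn7 (6.34), Cldn4 (3.43), Epcam (1.78), Cldn3 (1.63) and Ocln (1.07), with 6.15% of all genes, and Cldn8 was lower (-3.43), with 22.6%. Taken as single ablated cells with at least 3 Krt8 UMIs of 2000, whatever their cluster, Krt8-high cells had log2 ratios of 7.30 and 7.50 for Cldn7, 2.74 and 2.64 for Cldn4 and 1.34 and 1.27 for Epcam at the 2 times. With that definition Cldn23 at 1 day (-0.43) and Ocln at 1 week (0.05) were no longer past 2-fold, while Cldn3 at 1 day, at 0.75 by cluster, passed 2-fold higher and Cldn23 at 1 week (-1.26) 2-fold lower.

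Against the other ablated keratinocytes of the same library, fewer members stood out. At 1 day only Cldn7 was at least 2-fold higher, by a log2 ratio of 2.68 (interval 2.51 to 2.86), while 2.22% of all genes were. Cldn3 (-1.04), Cldn8 (-1.17) and Cldn23 (-3.63) were lower, in a comparison with 17.2% of all genes lower. At 1 week Cldn4 (2.37, interval 2.35 to 2.39) and Cldn7 (2.16, 1.92 to 2.41) were higher and Cldn8 (-4.18, -6.47 to -2.62) was lower, with 4.94% of genes higher and 24.3% lower. The level of Cldn23 in Krt8-high cells was 1.74 CPM at 1 day and 20.8 CPM at 1 week, and that of Cldn8 1.11 and 0.509 CPM. The Slpi-led cluster differed from the Krt8-high one: against the other ablated keratinocytes at 1 day it was higher in Cldn4 (1.06, with 1.56% of genes higher) and lower in Cldn3 (-3.40), Cldn8 (-2.37), Cldn7 (-2.23) and Cldn23 (-1.45), with 24.2% of genes lower.

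**Figure D4:**
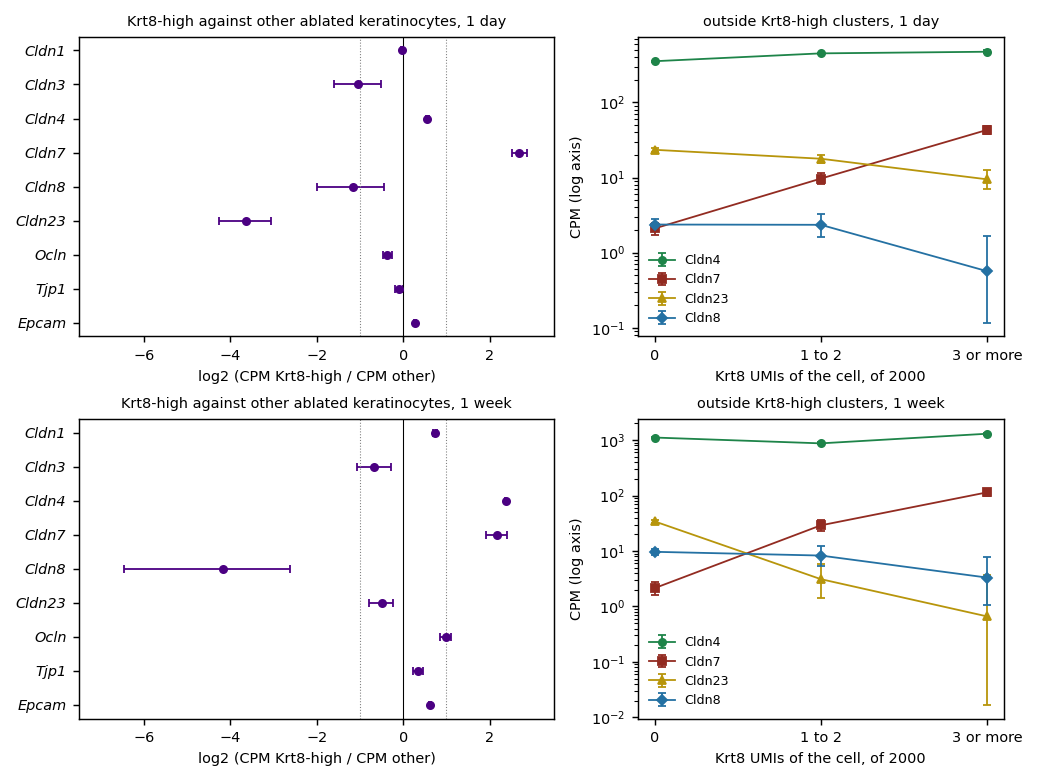
Left, log2 ratio of CPM in Krt8-high to other ablated keratinocytes for each member, with 95% counting intervals and dotted lines at 2-fold; right, CPM (log axis) of 4 claudins in ablated keratinocytes outside the Krt8-high clusters, by the Krt8 UMIs of the cell after thinning to 2000 UMIs. Cldn7 goes from 2.10 to 43.0 CPM across the Krt8 bins at 1 day, and at 1 week from 2.14 to 114 CPM, and Cldn23 goes down at both times.

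The other genes of the pathway were taken from a list of 59 tight junction, polarity and Epcam-related genes in the matrices, of which 40 had at least 50 UMIs at each time point. Their median log2 ratio was 0.17 at 1 day and 0.15 at 1 week, with 2 of 40 at least 2-fold higher and 0 lower at each time, near or below the 5.76% and 8.97% of all genes that were higher. At 1 day these were Pard6b, a cell polarity adaptor (36.0 and 109 CPM, ratio 1.60), and Amot, a junctional angiomotin (0.833 and 2.15 CPM, 1.37). At 1 week they were Amot (ratio 1.11) and Arhgef2, which is held at junctions (6.49 and 13.1 CPM, 1.01). Cingulin (Cgn), a junction plaque protein, had ratios of 0.91 and 0.77. Matriptase (St14), a membrane protease that cleaves Epcam, had 0.70 and 0.97. Tjap1, a tight junction associated protein, was lower at both times (-0.73 and -0.82), as was Cldn10 at 1 day (-0.91). Of 19 other claudins 4 had enough UMIs, with medians of -0.34 and -0.37. The 10 polarity genes had medians of 0.24 and 0.06, against -0.03 and 0.08 for all genes.

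Genes whose levels followed each member were sought over 47 sums of a class in a library, among 8339 genes, as a description only, since sums of a library share its depth and kit. The sums join both time points, and so both kits, and include classes that are not keratinocytes. Differences between kits and between epithelial and other classes therefore enter each r. Cldn7 was most like Krt8 (Pearson r 0.81), Krt18, its keratin partner (0.80), and Tslp, a cytokine gene (0.79). Krt8 also defines the Krt8-high clusters, and Krt18 and Tslp were among the leading genes of the largest of them at each time. These values are thus not independent of how the Krt8-high cells were picked. Cldn4 was most like Grhl3 (0.87), which encodes a Grainyhead factor of the epidermal barrier, Krt80 (0.84) and Arc (0.83). Cldn23 was most like Sdr9c7, Kprp and Acp7 (0.90 each), and Cldn3 most like Ano9 and Lipk (0.82 each) and Ide (0.81). Cldn1 and Ocln were each other's nearest gene (0.92), Epcam was nearest to Ocln (0.89), Cldn8 to Fzd7 and C1qtnf12 (0.80 each) and Tjp1 to Ppp2r5a (0.78). Fzd7 is also a marker from which bulge-like clusters were named. Among the members, Cldn7 had little likeness to Cldn1 (0.06) or Cldn23 (0.01).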

How the data were processed

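Each deposited matrix gives raw UMI counts, as whole numbers, by gene and barcode. The submitters' processing notes name Cell Ranger 5.0.1, Seurat and build mm10. The barcode and feature lists only name columns and rows, and 4 antibody features in the 1-day matrices were not analysed here. Barcodes needed 500 UMIs, 300 genes and no more than 15% mitochondrial UMIs, and the highest Scrublet scores were removed at 0.8% per 1000 barcodes, leaving 22298, 23651, 19879 and 15626 cells. Barcodes of under 3000 UMIs with a profile close to their library's lowest-UMI barcodes are called free-RNA-like, though free RNA was not measured. At 1 week they were 59.5% of control and 73.0% of ablated cells and were left out before clustering. At 1 day they were 28.3% of control and 38.9% of ablated cells and were kept. Each time point was clustered on its own in scanpy 1.11.5 (2000 variable genes without the members, 30 components, 15 neighbours, Leiden resolution 1, leidenalg 0.10.2). Clusters were named from marker lists, and the limits for naming were set after the data had been seen. Counts were summed per class and library and scaled to CPM. A ratio's interval is the exact conditional binomial one, a level's the exact Poisson one, a share's the exact Clopper-Pearson one. Cells were thinned to 2000 UMIs for shares. Ratios were tested on simulated data. TMM factors (edgeR 4.0.16) were an alternative scaling. All 9 members are named, up to 6 genes of the wider list with the largest ratios per time point, and the 3 genes most like each member (fewer are printed where they add little, and 1 gene of the wider list is not reported here). The members and lists were chosen with earlier results of these data known. Coordinates are from GENCODE M21 and promoters from RefSeq.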

Additional observations from a re-analysis of the deposited data

Results flagged for a closer look

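For 5 quantities the ratio of ablated to control had opposite signs at 1 day and 1 week, with the counting interval on 1 side of 0 at each time. The difference between the time points was not tested, because each group is 1 library and the kits differ. Over all keratinocytes the log2 ratio of Tjp1 was 0.17 and -0.12, both under 2-fold. In cycling cells that of Cldn1 was 0.10 and -0.50, from clusters that differ between the libraries at 1 week. In upper follicle-like cells that of Cldn23 was 1.54 and -0.87, the only one of the 5 with a value past 2-fold. In the clusters without a class Cldn1 had 0.04 and -0.43 and Ocln 0.54 and -0.31, and these clusters hold different cells in each library.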

How the results depend on the processing

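No paired analysis was possible because each group is 1 library. Of 217 single-gene values recomputed over all keratinocytes, 135 stayed within counting error, and 6 changed sign: Cldn7 at 1 day and Cldn23 at 1 week, which are past 2-fold, and Cldn8 and Ocln at 1 day, which are not, each with T cell-like (-1.04 and -0.60) and with immune CPM subtracted (-0.59 and -0.29). Of 36 for Krt8-high cells 12 moved. A Krt8 limit of 500 CPM, 1 of the 2 alternatives there, picked the same clusters and could not move a value. All 12 came from the other alternative, single cells with at least 3 Krt8 UMIs. Of 170 within classes 11 moved. At 1 day the median log2 ratio of the members, reported as 1.12, was 1.01 with totals free of mitochondrial and ribosomal protein genes (which shifted the median of all genes by -0.11), 1.14 with TMM factors, 1.01 with no doublets removed, 0.96 as a mean of per-cell CPM, 1.07 without Krt8-high clusters and 1.74 with the CPM of immune cells subtracted (7 members). At 1 week, reported as 1.09, it was 1.61 with immune cells subtracted (6 members). Cldn1, Ocln and Tjp1 had no value there. The subtraction took the control level of Epcam (13.07) and Cldn7 (8.13) to the floor of 3 counts, so the size of those values cannot be read. Further alternatives were chosen after the data had been seen. Without granular-like clusters and those without a class the 1-day median was 1.16. The 1-week median was then 0.96, just under 2-fold, and Cldn23 at 1 week was -0.02. Without free-RNA-like barcodes the 1-day median was 1.19. With the CPM of T cell-like cells subtracted the median was -0.60 at 1 day over 7 members and 1.36 at 1 week over 8 members. At 1 day Cldn4 and Cldn23 were then at least 2-fold higher, and Cldn1 (-1.83), Cldn8 (-1.04) and Cldn7 (-3.22) at least 2-fold lower. That Cldn7 value is set by the floor of 3 counts, since the level subtracted exceeds the ablated one, and gives no direction. It is still 1 of the 7 values behind the 1-day median. The other causes were not tested. Depth limited Cldn7, Cldn8, Cldn3 and Cldn23 most at 1 day, with at least 50 UMIs in 2, 2, 3 and 3 of the 8 classes compared. At 1 week it was 2, 4, 5 and 3 of 6. With Krt8-high cells taken one by one at 3 or more Krt8 UMIs, 3 members had the other sign at 1 week against control keratinocytes, Cldn1 (-0.24), Cldn23 (-1.26) and Tjp1 (-0.18).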

Other observations

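Langerhans-like cells, the antigen-presenting cells of the epidermis, carried Cldn1 above the T cell-like level in all 4 libraries, and Epcam above it in all but the 1-day ablated library. Their Cldn1 was 1230 and 1360 CPM at 1 day, with 1630 and 1390 CPM at 1 week, control and ablated, against 241, 519, 30.3 and 26.8 CPM in T cell-like cells of the same libraries. Their Epcam was 1050 and 1080 CPM at 1 day, with 1030 and 1370 CPM at 1 week, against 390.0, 1290, 71.4 and 76.6 CPM in T cell-like cells. The ratio of ablated to control in these cells was small for both genes, 0.14 and -0.23 for Cldn1 and 0.04 and 0.42 for Epcam. Cldn7 had 0 UMIs in them in all 4 libraries. Cldn4 was at 9.26 and 59.7 CPM at 1 day, with 83.6 and 1090 CPM at 1 week, against 36.4, 307, 4.33 and 46.0 CPM in T cell-like cells. The 1090 CPM came from few of the 72 cells: after thinning, 10 of 71 (14.1%) had a Cldn4 UMI, and 19.4% did before it.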
